A study of Mus musculus with 2 samples.

Results

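Mir126a, Mir143, Mir145a, Mir221 and Mir222 are 5 microRNA (miRNA) genes best known from blood vessels. They were chosen by name, through the Ensembl identifiers that GENCODE pairs with those symbols, and are 5 of the 1973 miRNA genes counted in this series. The series holds small-RNA sequencing of embryonic mouse limb, from B6NCrl embryos of both sexes pooled at embryonic day 10.5. There is 1 group, with no treatment, allele or second genotype named, and its 2 libraries are biological replicates from separate pools of 69 embryos (replicate 1) and 51 embryos (replicate 2). With a single group, the comparisons are between genes within a library and between the 2 libraries.

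A miRNA gene is transcribed as part of a longer RNA that is cut first to a hairpin and then to a mature strand, which binds messenger RNAs mainly through its seed (bases 2 to 8) and lowers their output. Mir126a lies inside Egfl7, a gene of a protein secreted by endothelial cells, and its product is the classic endothelial miRNA, needed for vessel integrity and angiogenesis. Mir143 and Mir145a are neighbours that are known to act in vascular smooth muscle, where they favour the contractile state and respond to serum response factor with myocardin. Mir221 and Mir222 are a pair of related genes known for targeting the receptor Kit and the cell cycle inhibitor Cdkn1b, and they act in endothelial cells, smooth muscle and many other dividing cells. At embryonic day 10.5 the limb is a bud of mesenchyme under ectoderm, with a plexus of endothelial vessels.

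The mature sequences of Mir126a, Mir221 and Mir222 show that Mir221 and Mir222 share a seed, which Mir126a does not have, and each is printed 5′ to 3′ with its seed in capitals, from RefSeq on GRCm38.p6. For 3 of the 5 genes the RefSeq table used here held a sequence. Mir143 and Mir145a are named only, and so are the 5p strands of Mir126a and Mir222.
mmu-miR-126a-3p: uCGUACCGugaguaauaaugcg
mmu-miR-221-3p: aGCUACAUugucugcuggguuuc
mmu-miR-222-3p: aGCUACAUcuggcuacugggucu
mmu-miR-221-5p: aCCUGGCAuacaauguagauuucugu
The 3p strands of Mir221 and Mir222 carry the same seed, and their first 8 bases are identical. Laid side by side without gaps, they match at 11 of 23 positions. No alignment with gaps was made, so their likeness past the first 8 bases was not measured. Among 1679 mature names in the table, 1 other, mmu-miR-1928, has that seed, and Mir1928 had 0 counts in both libraries. The limit set by 0 counts, taken as 3 counts, is 0.838 CPM (counts per 1000000 sense counts) in the first library, and 0.839 CPM in the second. No other mature sequence in the table has the seed of mmu-miR-126a-3p or of mmu-miR-221-5p.

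The hairpins place these strands in the genes that were counted. In each, the mature strands listed by RefSeq are in capitals.
Mir126a hairpin: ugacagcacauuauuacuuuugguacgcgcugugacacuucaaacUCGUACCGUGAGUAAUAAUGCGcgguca
Mir221 hairpin: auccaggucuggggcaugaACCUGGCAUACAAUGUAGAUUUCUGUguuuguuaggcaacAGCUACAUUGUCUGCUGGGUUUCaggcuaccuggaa
Mir222 hairpin: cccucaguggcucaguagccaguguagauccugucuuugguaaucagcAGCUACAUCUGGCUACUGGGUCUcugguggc
The tables give 1 count per hairpin gene, so the 5p and 3p strands cannot be told apart in any level given here. Reads that fitted several places in the genome equally well were counted at no gene, which matters for genes with copies. None of the hairpins of Mir143, Mir145a, Mir221 and Mir222 shared a run of 20 bases, on either strand, with any other of 2202 annotated miRNA hairpins. Mir126a shared one with Mir126b alone, which is annotated at the same place on the opposite strand. By this measure none of the 5 genes has a copy elsewhere among the hairpins. The rest of the genome was not searched.

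The libraries were alike in depth over miRNA genes: sense counts, those on the strand of the gene, summed to 3581672 in replicate 1 and 3576482 in replicate 2. Levels are given in CPM, which scales each gene's count to 1000000 of those sense counts. The intervals are 95% exact binomial ones that cover counting error only, since reads copied by PCR are not independent molecules. Levels of different genes are compared as read shares, and how well each sequence was captured was not measured. The limb list of 8 miRNA genes of limb position and mesenchyme was detected in full and held 200139 and 191926 CPM. The ectoderm list (3 of 3 detected) held 8016 and 7473 CPM, while the erythroid list (3 of 3) held 480 and 269, the leukocyte list (2 of the 3 measured) 731 and 611, and the heart and striated muscle list (4 of 5) 84.0 and 133 CPM. No measured gene of these 5 lists was at 0 in both libraries. Of all 1973 genes counted, 17.6% were detected, with at least 10 sense counts in both libraries.

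All 5 vascular genes were detected, with at least 10 sense counts in both libraries, against 17.6% of all genes counted. Their levels spread over about 3 orders of magnitude and took the same order in both libraries: Mir126a, Mir143, Mir145a, Mir221, Mir222. Together they held 3.17% of the sense counts in replicate 1 and 2.89% in replicate 2, and Mir126a made up 84.2% and 81.8% of that total. Mir143 made up 15.3% and 17.7%, so the other 3 genes were a very small part. The median over the 5 genes was 74.5 CPM, the level of Mir145a, and the median over the 348 detected genes was 136 CPM. In a bulk sample such as this, fewer cells of a type and less RNA per cell cannot be told apart.

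**Figure D1:**
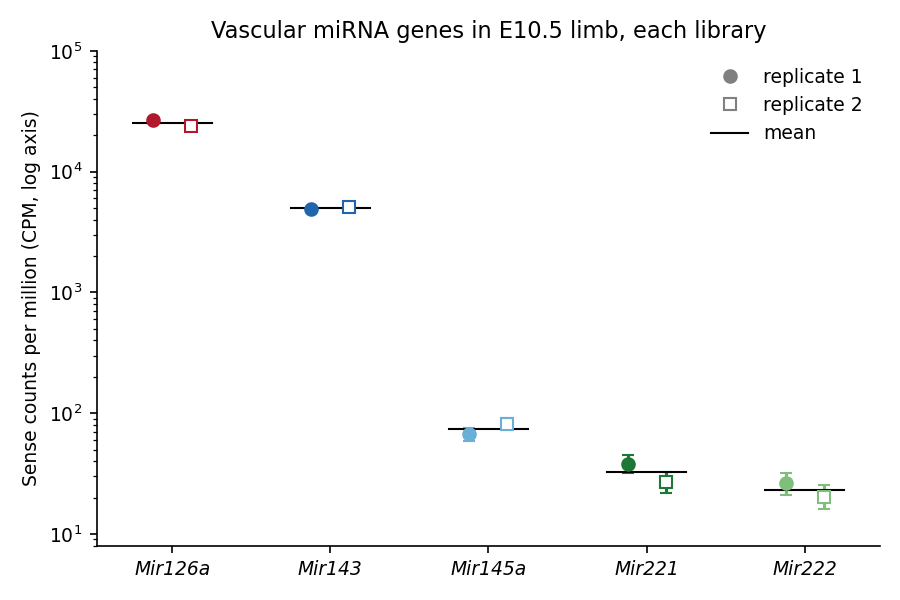
Sense CPM (log axis) of the 5 genes in each library; filled circles are replicate 1, open squares replicate 2, whiskers the 95% exact binomial interval (counting error only) and black lines the mean. Mir126a lies near 25195 CPM and Mir143 near 4993 CPM, and the other 3 genes lie between 20.4 and 81.9 CPM.

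Mir126a, the endothelial gene, was among the most abundant miRNA genes of the limb as counted. It had 95656 counts in replicate 1 and 84703 in replicate 2, which are 26707 CPM (26540 to 26875) and 23683 CPM (23526 to 23841). The mean was 25195 ± 2138 CPM (SD, n = 2), the 8th highest of all genes counted, at rank 8 in replicate 1 and 9 in replicate 2. Reads that fitted several places in the genome were counted at no gene, so genes with copies may rank too low beside Mir126a. The 73-base hairpin lies on the plus strand of chromosome 2 (GRCm38, chr2:26591357-26591429), within Egfl7. Of 9 Egfl7 transcripts that span the hairpin in GENCODE M21, 8 have it in an intron and 1, a retained-intron transcript, has it in an exon. Gm20532, a gene annotated across the same stretch on the same strand, has it in an intron as well.

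The genes next to Mir126a in the order of levels have other known roles. Mir20a, of the growth-associated Mir17-Mir92 cluster, lay above it in both libraries (29766 and 32379 CPM). Mir99b lay below it in both (20700 and 23330 CPM), although its value in replicate 2 was close to that of Mir126a in the same library. Mir10a, a gene of the Hoxb cluster, was higher at 42484 and 34327 CPM. Mir99a overlapped with Mir126a, at 16990 and 24427 CPM, and exceeded it in replicate 2. Over the 2 libraries Mir126a therefore did not overlap with Mir10a and Mir20a above it or Mir99b below it, but did overlap with Mir99a. With 2 libraries this does not settle its place in the order.

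Other measured miRNA genes known from endothelium were less abundant than Mir126a as counted. Of the 13 genes of the endothelial list, 11 were measured and 10 of those detected, against 17.6% of all genes counted. None had a higher mean than Mir126a. Mir23b, whose mature strand is known to act in angiogenesis, led the list at 13045 ± 3367 CPM (SD, n = 2). Mir126a had 1.73 times the counts of Mir23b in replicate 1 (1.71 to 1.75) and 2.22 times in replicate 2 (2.19 to 2.25). Mir100 followed at 8787 ± 2100, Mir23a at 4778 ± 732 and Mir296 at 4694 ± 680 CPM. Mir210, the gene induced by low oxygen, had 235 ± 13.9 CPM, and Mir132, known from vessel sprouting, had 31.8 ± 9.45 CPM. Mir212 was the 1 gene measured but not detected, with 24 and 9 counts. Mir23a, Mir23b, Mir27a, Mir27b and Mir24-2 each share a run of 20 bases with another hairpin, so their counts may be too low. The place of these genes below Mir126a is therefore not settled. The list median was 1379 CPM over the 11 measured genes, and the median over all detected genes was 136 CPM. The list was chosen with earlier results of these data known, so its detection and median are a description only.

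Mir126a was far above the blood cell markers in the same libraries. It had 63.2 times the counts of the erythroid gene Mir451a in replicate 1 (60.1 to 66.5) and 103 times in replicate 2 (96.1 to 110). It had 133 times (124 to 143) and 150 times (138 to 163) those of the myeloid gene Mir223. Mir451a had 423 and 230 CPM, and Mir223 had 201 and 158 CPM. Mir155, the most abundant gene of the leukocyte list, was above both of these at 528 and 452 CPM. Mir126a is also known from blood stem cells and megakaryocytes, and the part of blood cells in its level was not tested. The limb list lay on both sides of Mir126a and the ectoderm list below it. Mir10b, Mir196b and Mir10a, genes of the Hox clusters, exceeded it with means of 69833, 63953 and 38405 CPM. The other 5 genes of the limb list lay below it as counted, down to Mir199a-1 at 20.8 CPM. Whether Mir199a-1, Mir199a-2 and Mir199b share sequence with another hairpin is not given here. Reads that fitted several places equally well were counted at no gene. If these genes share sequence, their counts may be too low, and their place below Mir126a is not settled. All 3 ectodermal genes lay below Mir126a, Mir203 at 1536 and Mir200c at 1399 CPM. Mir126a had 5.31 times (5.22 to 5.39) and 5.16 times (5.08 to 5.25) the counts of the most abundant of these, Mir205. It had 1.61 times (1.59 to 1.63) and 1.15 times (1.14 to 1.17) those of the mesenchymal gene Mir214.

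**Figure D2:**
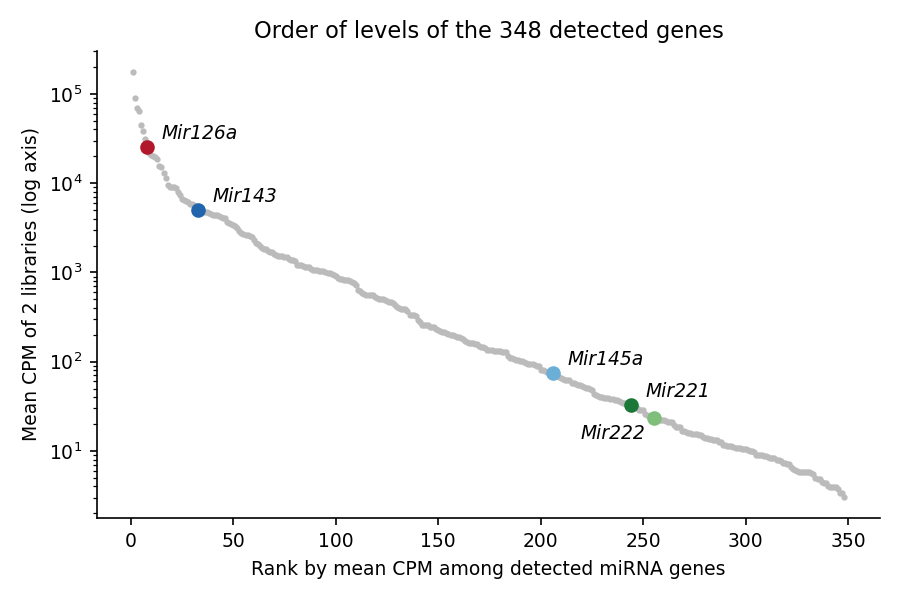
Mean CPM of the 2 libraries (log axis) against rank for the 348 detected miRNA genes, in grey, with the 5 vascular genes in colour. Mir126a is at rank 8 and Mir143 at rank 33, and Mir145a, Mir221 and Mir222 are at ranks 206, 244 and 255, below the median level of 136 CPM.

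Mir143 was the abundant gene of the smooth muscle pair. It had 17412 and 18331 counts, or 4861 CPM (4790 to 4934) in replicate 1 and 5125 CPM (5052 to 5200) in replicate 2. The mean was 4993 ± 187 CPM (SD, n = 2), with an SD of 3.74% of the mean, and the rank was 33. The 4 genes next to it in the order, Mir1983, Mir30a, Mir369 and Mir351, had means between 4845 and 5630 CPM and overlapped with it over the libraries, so its exact rank is not settled.

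Mir145a, its neighbour, was low. It had 240 counts in replicate 1 and 293 in replicate 2, which are 67.0 CPM (58.8 to 76.0) and 81.9 CPM (72.8 to 91.9). The mean was 74.5 ± 10.5 CPM (SD, n = 2) at rank 206. The genes beside it, Mir190a, Mir101a, Mir666 and Mir30c-1, had means between 71.1 and 76.8 CPM, and each overlapped with it.

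Within each library, Mir143 exceeded Mir145a by more than 60-fold. The ratio of counts was 72.6 in replicate 1 (63.9 to 82.8) and 62.6 in replicate 2 (55.7 to 70.5), so the counting intervals of the 2 libraries overlap. On the log2 scale with 1 count added to each gene, the ratio was 6.07 ± 0.15 (SD, n = 2). Of the counts of the pair, Mir143 held 98.6% (98.5 to 98.8) and 98.4% (98.2 to 98.6). Both libraries thus gave almost the same split.

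The pair lies on the minus strand of chromosome 18, Mir143 at chr18:61649196-61649258 and Mir145a at chr18:61647825-61647894 (GRCm38), with starts 1371 bases apart and Mir143 upstream. In GENCODE M21 no gene spans either hairpin, and the long noncoding RNA gene Carmn, on the same strand, ends 366 bases upstream of Mir143. RefSeq on the same build draws Carmn, which it also calls Mir143hg, from 61645878 to 61665538, over both hairpins. The identifiers of Mir143 and Mir145a carry a later version number in GENCODE M21 than in the deposited tables (3 against 2 and 2 against 1), so the bases counted may differ from those coordinates. Whether that bears on the ratio was not tested.

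Unequal levels were common among neighbouring miRNA genes. Besides this pair, 107 pairs of consecutive detected genes on 1 strand had starts at most 10000 bases apart, and the median size of their log2 ratio was 2.70, or 6.50-fold. The middle of that distribution ran from 1.54 to 4.87 (quartiles). The log2 ratio of Mir143 to Mir145a was larger than in 87.9% of those pairs, and 13 pairs had a larger one. Among the 59 other pairs whose hairpins share no run of 20 bases with a hairpin elsewhere, a subset chosen after the values were seen, 4 had a larger one. Pairs that share a gene are not independent, and these counts are a description.

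**Figure D3:**
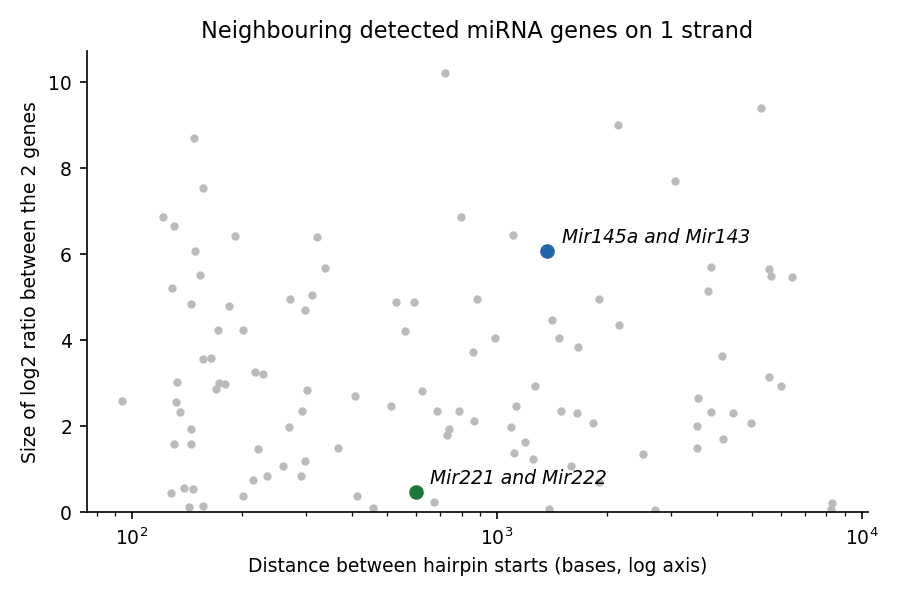
Size of the log2 ratio between consecutive detected miRNA genes of 1 strand (mean of 2 libraries) against the distance between their hairpin starts in bases (log axis); grey points are the other pairs. Mir143 and Mir145a, 1371 bases apart, lie at 6.07 and Mir221 and Mir222, 599 bases apart, at 0.46.

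The other miRNA genes known from smooth muscle ranged from very abundant to 0. Of the 9 genes of that list, 8 were measured, 4 detected and 4 at 0 in both libraries, and 17.6% of all genes counted were detected. The list summed to 46265 and 37722 CPM, most of it Mir10a, and its median was 3.84 CPM, which the 4 genes at 0 set. Mir10a, which is also a Hox gene neighbour, led it at 38405 ± 5768 CPM, and Mir21a, a gene of growth and stress in muscle and vessel wall, had 3552 ± 270 CPM (SD, n = 2). Mir143 had 1.30 times the counts of Mir21a in replicate 1 (1.27 to 1.33) and 1.53 times in replicate 2 (1.49 to 1.56). Mir26a-2 and Mir26a-1 had 28.6 ± 2.54 and 7.68 ± 0.205 CPM, and they share sequence with each other. Mir1a-1, Mir133a-1, Mir133a-2 and Mir145b had 0 counts. For the first 3 this sets no limit on the mature strand, because each shares a run of 20 bases with another hairpin, but for Mir145b, which shares none, it allows up to 0.839 CPM.

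The striated muscle marker Mir206 had 26.8 CPM in replicate 1 and 97.9 CPM in replicate 2, below Mir145a in the first library and above it in the second. Mir145a had 2.50 times the counts of Mir206 in replicate 1 (1.97 to 3.20) and 0.837 times in replicate 2 (0.714 to 0.981). Mir143 was above Mir206 in both, by 181 times (148 to 224) and 52.4 times (47.1 to 58.4).

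Mir221 and Mir222 were the least abundant of the 5 genes. Mir221 had 137 counts in replicate 1 and 96 in replicate 2, or 38.3 CPM (32.1 to 45.2) and 26.8 CPM (21.7 to 32.8), with a mean of 32.5 ± 8.07 CPM (SD, n = 2) at rank 244. Mir222 had 94 and 73 counts, or 26.2 CPM (21.2 to 32.1) and 20.4 CPM (16.0 to 25.7), with a mean of 23.3 ± 4.12 CPM (SD, n = 2) at rank 255. The lowest value of Mir221 was just above the highest of Mir222, so the 2 genes did not overlap across libraries, but by a margin within counting error.

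On average the 2 genes differed by less than most neighbouring pairs did. Mir221 had 1.46 times the counts of Mir222 in replicate 1 (1.11 to 1.92) and 1.32 times in replicate 2 (0.960 to 1.81). The interval lies above 1 in replicate 1 and includes 1 in replicate 2. On the log2 scale the ratio was 0.46 ± 0.10 (SD, n = 2), smaller than in 96 of the 107 other neighbouring pairs. With at least 10 counts needed per gene, a pair this low could not show the largest ratios. A higher level of Mir221 was seen in both libraries but was not separable from equal counts in replicate 2 at its depth of 169 counts for the pair.

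Mir221 and Mir222 lie on the minus strand of chromosome X, at chrX:19146294-19146388 and chrX:19146893-19146971 (GRCm38), with starts 599 bases apart and Mir222 upstream. No annotated gene of GENCODE M21 spans either hairpin. The genes beside Mir221 in the order of levels were Mir34b, Mir574, Mir384 and Mir132, and those beside Mir222 were Mir3066, Mir3061, Mir219a-2 and Mir326. All 8 overlapped with the gene they stand next to. Mir132, which is on the endothelial list, and Mir221 had almost the same counts, with ratios of 0.993 (0.778 to 1.27) and 1.07 (0.792 to 1.44).

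Across the 3 loci, Mir126a was highest and the Mir221-Mir222 pair lowest in both libraries. Mir126a had 5.42 times the summed counts of Mir143 and Mir145a in replicate 1 (5.33 to 5.51) and 4.55 times in replicate 2 (4.48 to 4.62), a log2 ratio of 2.31 ± 0.18 (SD, n = 2). It had 414 times (364 to 473) and 501 times (431 to 586) the summed counts of Mir221 and Mir222, a log2 ratio of 8.82 ± 0.19. The smooth muscle pair had 76.4 times (67.1 to 87.4) and 110 times (94.7 to 129) the counts of the Mir221-Mir222 pair, a log2 ratio of 6.51 ± 0.37. The counting intervals of the libraries overlap for Mir126a against Mir221 and Mir222, but not for the other 2 ratios, so those differed between the libraries by more than counting error. These differences are small beside the ratios themselves.

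Mir145a and Mir221, neighbours in the order of the 5 genes, were also separate in each library. Mir145a had 1.75 times the counts of Mir221 in replicate 1 (1.41 to 2.18) and 3.05 times in replicate 2 (2.42 to 3.88). Mir145a was higher and Mir221 lower in replicate 2, so the distance between them widened there.

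**Figure D4:**
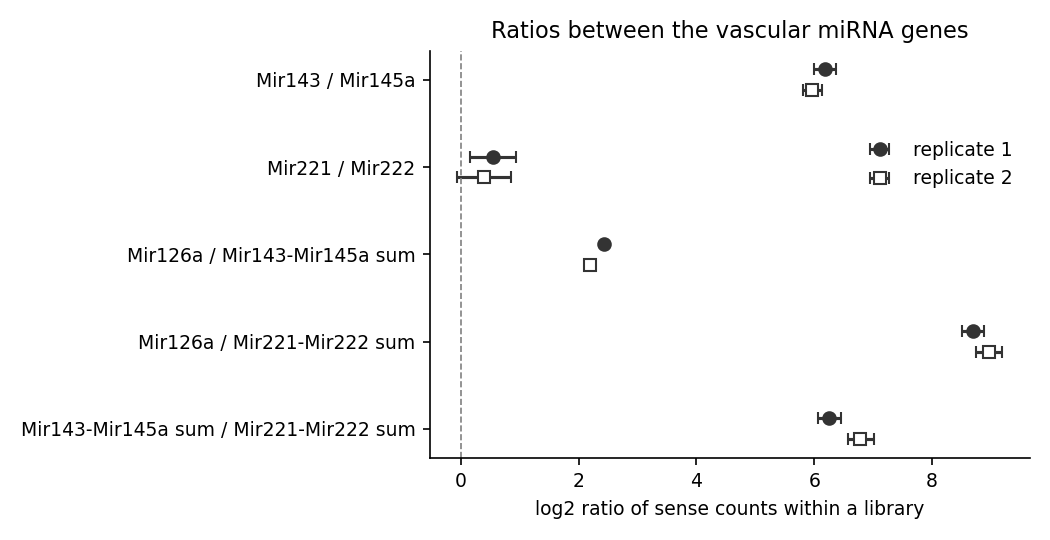
Log2 ratio of sense counts between vascular miRNA genes or gene sums within each library; filled circles are replicate 1, open squares replicate 2, whiskers the 95% exact binomial interval (counting error only) and the dashed line equal counts. The Mir221 to Mir222 ratios, 1.46-fold and 1.32-fold, lie close to the line, and the Mir143 to Mir145a ratios, 72.6-fold and 62.6-fold, lie far from it.

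The 5 genes in replicate 2 stood at 0.702 to 1.22 of their level in replicate 1. None of the 4 vascular genes with a mean of 100 counts or more (all but Mir222) differed by more than 2-fold between the libraries, against 10.8% of the 250 genes past that minimum. With 4 genes, a count of 0 does not set them apart from that share. The median log2 ratio of replicate 2 to replicate 1 over the 4 genes was -0.05, and over the 250 genes it was -0.27, and both values shift with the scaling. No test across the libraries was run, since the smallest two-sided p of an exact sign-flip test on 2 libraries is 0.5, and these ratios are given with counting intervals.

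Mir145a was 1.22-fold higher in replicate 2 (1.03 to 1.46) and Mir143 1.05-fold higher (1.03 to 1.08). Mir126a in replicate 2 was at 0.887 of its level in replicate 1 (0.879 to 0.895), Mir221 at 0.702 (0.535 to 0.918) and Mir222 at 0.778 (0.565 to 1.07). At this scaling both genes of the smooth muscle pair thus lay on one side and both of the Mir221-Mir222 pair on the other. Relative to the median of the 250 genes, Mir145a was 0.56 and Mir143 0.35 higher on the log2 scale, Mir126a 0.10 higher, Mir222 -0.09 and Mir221 -0.24. Mir126a and Mir222 changed direction under other scalings of the libraries: the log2 ratio of Mir126a was -0.17 here and 0.11 with TMM factors, and that of Mir222 was -0.36 here and 0.12 per read of the whole library. Every one of the 5 ratios lay within 1 SD (0.66) of the median of the 250 genes.

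**Figure D5:**
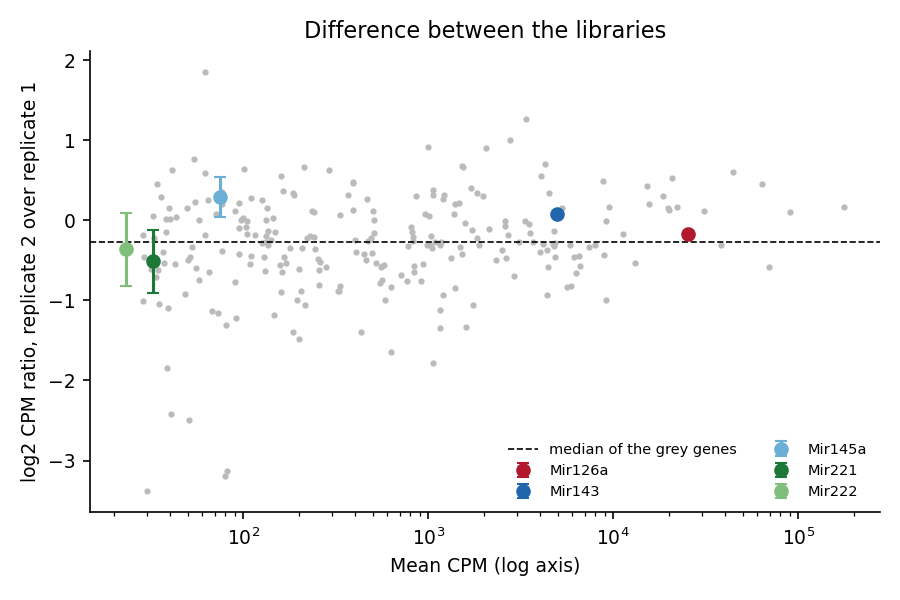
Log2 CPM ratio of replicate 2 to replicate 1 against mean CPM (log axis) for the 250 genes past a mean of 100 counts, in grey, with the 5 vascular genes in colour; whiskers are the 95% exact binomial interval (counting error only) and the dashed line is the grey genes' median of -0.27. The coloured genes lie between -0.51 and 0.29.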

How the data were processed

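The deposited tables, 1 per library, hold raw read counts per miRNA gene, not normalized, as the authors made them. Per the readme texts deposited with them, reads were aligned to mm10 and counted over GENCODE M4, without pooling the replicates. The aligner is not given in the sources used here, nor is the counter. Of 10064833 and 7218612 reads, 32.3% and 18.6% were unmapped and 21.9% and 25.4% multimapping, and these were left out. Symbols and coordinates came from GENCODE M21 (GRCm38, the same build), where 1894 of 1973 identifiers matched. The sense column was used, with a prior count of 1 in log2 values. TMM factors (edgeR 4.0.16) and DESeq2 1.42.0 size factors, in R 4.3.3, were alternatives. Other steps used Python 3.11.15, numpy 2.4.6, pandas 2.3.3, scipy 1.17.1 and matplotlib 3.10.9. The replicate ratios and ratio intervals were tested on simulated data with counting error only, and the pairing of neighbours on a small made-up example. Genes named are the 5 genes, the 2 detected genes above and below each in mean CPM, genes that share a seed, and the fixed lists, of which the marker genes were used as sums and as single genes. The members and lists were chosen with earlier results of these data known.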

Additional observations from a re-analysis of the deposited data

Results flagged for a closer look

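Reads on the strand opposite to Mir126a were seen in both libraries, outside the sense counts used for the levels: 16 counts in replicate 1 and 20 in replicate 2, both above the 3 counts that a count of 0 allows. They made up 0.0167% (0.00956 to 0.0272) and 0.0236% (0.0144 to 0.0365) of the counts at the locus. The other 4 genes had 0 antisense counts in both libraries. That allows shares of up to 0.0212% for Mir143 (the larger upper bound of the 2 libraries). For Mir145a, Mir221 and Mir222 it allows up to 1.53%, 3.77% and 4.93%, taken the same way. In each library these intervals overlapped that of Mir126a. Shares pooled over the 2 libraries were not compared, so a difference between Mir143 and Mir126a was not tested. Of the 135 genes with at least 1000 sense counts in both libraries, 16 had any antisense count, and 9 had a larger share than Mir126a. GENCODE M21 and RefSeq annotate Mir126b on that strand, over 58 bases of the Mir126a hairpin. Counts of Mir126b itself were not analysed here. The 5p strand of Mir126b, in which the seed is in capitals, overlaps mmu-miR-126a-3p by 19 bases on the opposite strand.
mmu-miR-126b-5p: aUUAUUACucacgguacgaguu
Whether the antisense reads are Mir126b products was not tested.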

How the results depend on the processing

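Leaving out 1 of 2 libraries cannot move a mean by more than its SD, so it is no check of the levels. Of the 72 other alternative values, a ratio and its inverse counted once, 55 were labelled as the same as the reported value. Levels and ratios were judged by the replicate spread or the counting interval. Percentiles were judged by a binomial interval over pairs, and the number of genes past 2-fold by being equal. The number detected at a minimum of 100 counts was judged by its ratio to the main number. At a minimum of 1 count its label was fixed as the same. Some values could not move, such as ratios between genes with 0 antisense counts when both strands were counted, so the tally is no measure of robustness. Per 1000000 reads of the whole library, a larger denominator, the levels were 10619 for Mir126a, 2135 for Mir143, 32.2 for Mir145a, 13.5 for Mir221 and 9.73 for Mir222, in the same order. The ratios within a library do not depend on scaling, and counting both strands, other prior counts (0.5 and 5) and either library by itself kept the direction of all of them. The log2 ratio of replicate 2 to replicate 1 did depend on scaling, which moves the median of all genes from -0.27 to 0.01 (TMM), 0.00 (DESeq2) or 0.21 (all reads). For Mir126a it became 0.11, 0.10 and 0.30 in that order, with a change of sign. For Mir143 it became 0.36, 0.35 and 0.55, and for Mir145a 0.57, 0.56 and 0.77. For Mir221 and Mir222 it became -0.029 and 0.12 with all reads. The constant shift is set by the denominators. With a minimum of 100 counts in both libraries, 3 of the 5 genes were detected, against 11.9% of all genes counted. Mir221 and Mir222 each have a count below that minimum, and their percentile among neighbouring pairs could not be computed there. The percentile of Mir143 to Mir145a ran from 82.4 (at least 1 count) to 93.2 (no shared run of 20 bases) and that of Mir221 to Mir222 from 9.52 to 10.3. No paired analysis was possible because there is 1 group. Depth limits Mir221 and Mir222 most.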
